A study of Mus musculus with 20 samples.

Results

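Neurons that had fired long bursts for 5 hr were compared with neurons that had fired short bursts for 2 hr. In the 90/5 5 hr group, cultured mouse dorsal root ganglion (DRG) neurons were given 90 action potentials every 5 min for 5 hr. In the 18/1 2 hr group they were given 18 action potentials every 1 min for 2 hr, so the pattern and the time of firing both differ between the groups. The members are 8 of the 20 samples of the series, 4 in each group, chosen by their labels. Another 4 samples of unstimulated neurons, fitted with electrodes that were left unconnected, gave the level of each gene without firing. All 3 groups came from E13.5 embryos of the NIH Swiss strain, were grown for weeks with nerve growth factor and serum, with the division of non-neuronal cells inhibited, and lost both on the night before the experiment. The stimulus in both patterns was a biphasic pulse of 6 V and 0.2 ms. The methods give spinal cords as the tissue that was dissected, while the labels give DRG neurons as the cell type.

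An action potential opens voltage-gated calcium channels, and the calcium that enters a neuron activates kinases that carry the signal to transcription factors such as CREB, which are already in the nucleus. These switch on immediate early genes, among them the Fos, Egr and Nr4a families, many of which are transcription factors themselves, and then effector genes such as the growth factor gene *Bdnf*. The transcripts are mostly short-lived, and phosphatases, corepressors and RNA decay factors that are induced beside them act as a brake. In sensory neurons, firing of this kind accompanies touch, pain and development.

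Both 18/1 2 hr arrays and both unstimulated arrays lay on slide 1 and both 90/5 5 hr arrays on slide 3, so an effect of the slide and one of the firing cannot be told apart in any comparison with 90/5 5 hr. The methods describe each condition as 5 pooled cultures and do not say how these were divided among the 4 samples, so p-values measure only the spread between these samples, on 2 arrays per group. Spot brightness over local background had medians of 2.27 to 2.94 in the samples of 18/1 2 hr and 2.66 to 4.91 in those of 90/5 5 hr. The highest signal was 65526 in every sample of slide 1 and 113917.2 to 506707.2 in the samples of 90/5 5 hr. The upper range of the signal thus also differed between the groups compared. The 10 spike-in RNAs, which are added in known amounts, were all lower at 90/5 5 hr, by a median log2 difference of -0.99 (lowest -2.09, highest -0.07), against -0.12 to 0.01 between 18/1 2 hr and unstimulated neurons on slide 1. Replicate 3 of 90/5 5 hr stood apart from its group, with correlations of 0.962 to 0.972 with the other 3, which reached 0.994 among themselves. Leaving it out lowered the median SD within the group from 0.27 to 0.17, beside 0.23 at 18/1 2 hr. Of 14 markers of DRG neurons, 13 passed the filter and limma called 0 between the groups (1 at an unadjusted p under 0.05), while 7 of 8 markers of spinal cord neurons failed it. In RNA from whole cultures, fewer cells of a type and less RNA per cell cannot be told apart.

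A level is given below as the log2 of the normalized intensity, and a difference is the level at 90/5 5 hr minus that at 18/1 2 hr unless another pair is named. A gene is called when its p from limma, adjusted by the Benjamini-Hochberg method over all 15279 genes tested, is under 0.05. Between 90/5 5 hr and 18/1 2 hr, limma called 310 genes (2.03%). Of these, 127 were higher at 90/5 5 hr (0.831%) and 183 were lower (1.2%), and 2520 genes (16.5%) had an unadjusted p under 0.05. When each sample was only centred on its median, 278 genes were called higher and 68 lower, and the median difference of all genes moved from -0.01 to 0.10. The number of calls rested on single libraries. It was 62 without replicate 4 of 90/5 5 hr, 1954 without replicate 1 and 536 without replicate 3, and 180, 138 and 117 without replicates 1, 2 and 4 of 18/1 2 hr. The 4 samples of the groups did not overlap for 1246 genes (8.15%).

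**Figure D1:**
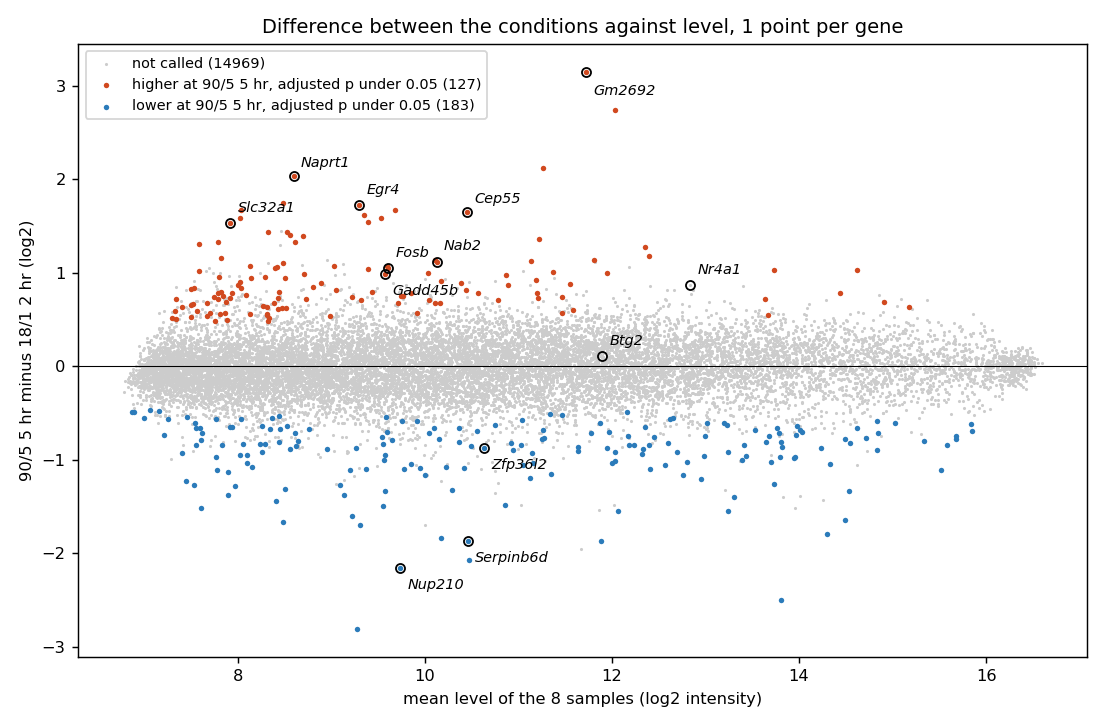
Each point is a gene, with its mean level over the 8 samples (log2 intensity) on the horizontal axis and its difference, 90/5 5 hr minus 18/1 2 hr (log2), on the vertical axis. The 127 genes called higher at 90/5 5 hr and the 183 called lower are coloured, and *Btg2*, which both conditions raised, lies at 0.11 near the zero line.

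A few rapid transcription factors were higher after long bursts at 5 hr than after short bursts at 2 hr, and most did not pass the test. Of the 30 genes on the list of activity transcription factors, 25 passed the filter and 21 lay above zero. Of the 25, 3 were called higher (*Egr4*, *Fosb* and *Fosl1*), beside 0.831% of all genes, and 0 were called lower. The median difference was 0.40, against -0.01 over all genes. At an unadjusted p under 0.05 there were 10 members, all higher, beside 16.5% of all genes in either direction. Against unstimulated neurons the median was 0.68 at 18/1 2 hr and 1.09 at 90/5 5 hr. The list kept its sign but not its size without single libraries: without 90/5 5 hr replicate 3, 18 of 26 lay above zero with a median of 0.18, without 18/1 2 hr replicate 1 the median was 0.15, and without array 10 it was 0.08. The 7 subunits of AP-1, the dimer of Fos and Jun proteins, all lay above zero, from 0.29 for *Jund* to 1.04 for *Fosb*.

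*Egr4*, a zinc finger transcription factor of the Egr family, differed most among the activity genes (probe on chromosome 6 of mm9 from 85461153 to 85461212). Its level was 8.78, 8.25, 8.79 and 7.94 in the samples of 18/1 2 hr and 10.22, 10.34, 10.47 and 9.62 in those of 90/5 5 hr. All 90/5 5 hr samples lay above all 18/1 2 hr samples, with a difference of 1.72, or 3.30-fold (standard error 0.22, adjusted p = 0.00132, limma). The unstimulated samples held 7.31, 6.94, 6.52 and 6.55, and the probe was at least 2 times its background in 2 of them, so no test was made against that group. *Egr4* was called under all 28 limma alternatives that gave it a value, with differences of 1.58 to 1.96. The methods' t-test, once adjusted by Benjamini-Hochberg, called 0 of the 25 activity transcription factors, *Egr4* included, and the counts of alternatives given for single genes leave that test out.

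*Fosb*, which encodes a subunit of AP-1, was the only gene called in all 3 comparisons (probe on chromosome 7 from 19888168 to 19888227). Levels were 7.51, 7.83, 7.25 and 7.81 in unstimulated neurons, 9.09, 9.27, 9.17 and 8.81 at 18/1 2 hr and 9.996, 10.01, 10.47 and 10.04 at 90/5 5 hr. The 3 groups form 3 separate steps with no overlap. *Fosb* was 1.49 above unstimulated neurons at 18/1 2 hr (adjusted p = 0.00807, limma), 2.53 above at 90/5 5 hr (adjusted p = 2.02e-05) and 1.04 higher at 90/5 5 hr than at 18/1 2 hr (standard error 0.18, adjusted p = 0.00995). The last call was lost without replicate 4 of either group (adjusted p = 0.103 for 90/5 5 hr and 0.0603 for 18/1 2 hr), without array 3 or 4, and in a fit of all 20 samples (adjusted p = 0.793). The rise at 18/1 2 hr was not called without its replicate 1, 2 or 3.

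*Gadd45b*, which encodes a stress-inducible protein with a part in DNA demethylation, was the only one of 25 activity effectors called (probe on chromosome 10 from 80394367 to 80394426). Its level was 9.35, 8.90, 9.04 and 9.02 at 18/1 2 hr and 10.41, 10.14, 10.02 and 9.68 at 90/5 5 hr, with no overlap and a difference of 0.98 (standard error 0.16, adjusted p = 0.00839, limma). Against unstimulated neurons, which held 8.04 to 8.26, the difference was 0.94 at 18/1 2 hr (adjusted p = 0.133) and 1.92 at 90/5 5 hr (adjusted p = 6.71e-05). Over the activity effectors, 18 of 25 lay above zero, with a median of 0.43 and 10 higher and 1 lower at an unadjusted p under 0.05, beside 2.03% of all genes called and 16.5% at that p. The median of the activity effectors was 0.28 without replicate 3 of 90/5 5 hr, 0.21 without array 10 and 0.23 with limma array weights. *Gadd45b* was not called without replicate 4 of 90/5 5 hr (adjusted p = 0.0526), without array 3 or 4, with means of arrays as the units (adjusted p = 0.0672), or in a fit of all 20 samples (adjusted p = 0.505). With means of arrays *Fosl1*, *Relb*, *Nab2*, *Zfp36l2*, *Pik3r1*, *Cd44*, *Artn*, *Kcna5*, *Trpv4* and *Rps19* were also not called.

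The RefSeq promoters of these 3 genes and of *Btg2*, which both conditions raised alike, are printed because they differ in the CRE half-site, the letters TGACG that CREB can bind. Each runs from 250 bases before the start site to 50 after it, 5′ to 3′ on the strand of the gene, in build GRCm38.p6, with half-sites on either strand in capitals (CGTCA marks the opposite strand). *Egr4* is read from chr6:85513540-85513839 (minus strand), *Fosb* from chr7:19309996-19310295 (minus strand), *Gadd45b* from chr10:80929841-80930140 (plus strand) and *Btg2* from chr1:134079106-134079405 (minus strand).
Egr4: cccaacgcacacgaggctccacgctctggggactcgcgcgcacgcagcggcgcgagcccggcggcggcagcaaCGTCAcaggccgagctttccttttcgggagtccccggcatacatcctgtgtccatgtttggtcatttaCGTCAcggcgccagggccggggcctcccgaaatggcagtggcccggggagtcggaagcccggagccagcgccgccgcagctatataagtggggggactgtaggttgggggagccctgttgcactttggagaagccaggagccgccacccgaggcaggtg
Fosb: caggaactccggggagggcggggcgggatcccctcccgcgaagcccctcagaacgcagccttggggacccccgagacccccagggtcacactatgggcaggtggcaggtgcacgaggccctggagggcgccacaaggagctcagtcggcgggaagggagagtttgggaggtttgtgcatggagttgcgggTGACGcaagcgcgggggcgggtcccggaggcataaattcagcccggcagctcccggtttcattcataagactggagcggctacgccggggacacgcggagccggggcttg
Gadd45b: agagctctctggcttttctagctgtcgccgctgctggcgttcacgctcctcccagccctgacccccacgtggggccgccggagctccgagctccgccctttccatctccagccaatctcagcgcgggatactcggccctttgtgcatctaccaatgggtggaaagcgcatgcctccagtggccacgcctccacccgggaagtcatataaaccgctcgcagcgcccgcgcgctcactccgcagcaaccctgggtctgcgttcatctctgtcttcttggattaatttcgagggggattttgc
Btg2: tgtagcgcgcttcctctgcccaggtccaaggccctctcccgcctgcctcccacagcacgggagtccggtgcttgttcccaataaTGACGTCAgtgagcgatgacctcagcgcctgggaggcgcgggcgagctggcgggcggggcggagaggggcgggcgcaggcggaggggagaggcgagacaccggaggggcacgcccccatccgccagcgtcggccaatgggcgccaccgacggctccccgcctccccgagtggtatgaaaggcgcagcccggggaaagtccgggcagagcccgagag

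The window of *Egr4* holds 2 half-sites, that of *Fosb* 1 and that of *Gadd45b* 0. That of *Btg2* holds 2 on opposite strands that overlap as 1 full CRE, the palindrome TGACGTCA. Among the other genes called against unstimulated neurons in both conditions, the promoter of *Nr4a1* holds 4 half-sites and that of *Rgs2* 2. The promoter of *Egr1*, also called in both, was not examined. The letters TGACG on either strand stand in 20.8% of the 32851 promoters of the table, each counted singly. The shares of genes count a gene when any of its promoters matches, so they are not the same measure. By that count the letters stand in 34.7% of the 10072 tested genes with a promoter. They stand in 77.8% of the 18 activity transcription factors with a promoter and in 62.5% of 16 activity effectors. By contrast, the share was 25.3% of 75 genes called higher at 90/5 5 hr, 27.8% of 54 called lower and 33% of 2553 genes that held within 1.4-fold. The AP-1 motif TGANTCA stood in 5.33% of those called higher, 9.26% of those called lower and 6.26% of all tested genes. A match of letters is a description of the window and not a binding site.

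The other 4 called genes with roles in this response differed by less or rested on fewer libraries. *Fosl1*, another AP-1 subunit, had levels of 7.39, 7.55, 7.62 and 7.57 at 18/1 2 hr and 7.92, 8.10, 8.16 and 8.17 at 90/5 5 hr, a difference of 0.56 (adjusted p = 0.0203, limma). *Nab2*, a corepressor that binds Egr proteins and restrains them, was at 9.51, 9.45, 9.72 and 9.58 and at 10.35, 10.45, 11.61 and 10.33, a difference of 1.12 (adjusted p = 0.0437). Replicate 3 lies far above the others, and without it the groups still do not overlap. *Relb*, an NF-kappaB subunit, was at 9.52, 9.35, 9.43 and 9.56 and at 9.996, 10.22, 10.59 and 10.18, a difference of 0.78 (adjusted p = 0.0404). *Relb* was at the unstimulated level at 18/1 2 hr (0.03, adjusted p = 0.978) and above it at 90/5 5 hr (0.81, adjusted p = 0.0291).

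*Zfp36l2*, an RNA-binding protein that promotes decay of AU-rich transcripts, was the only feedback inhibitor called lower. Its levels of 10.50, 11.71, 10.53 and 11.53 at 18/1 2 hr and 9.76, 10.49, 9.89 and 10.63 at 90/5 5 hr overlap, since the Cy5 samples of both groups lie above the Cy3 samples, and the difference of -0.88 (adjusted p = 0.0139, limma) was not called without the colour term (adjusted p = 0.225). Of the limma alternatives, *Fosl1* kept its call in 19 of 29, *Relb* in 16, *Nab2* in 15 and *Zfp36l2* in 20. *Fosl1*, *Relb*, *Nab2* and *Zfp36l2* were not called without replicate 2 or 4 of 18/1 2 hr or replicate 4 of 90/5 5 hr, the first 3 also not without replicate 1 of 18/1 2 hr, and *Relb* and *Nab2* also not without its replicate 3.

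**Figure D2:**
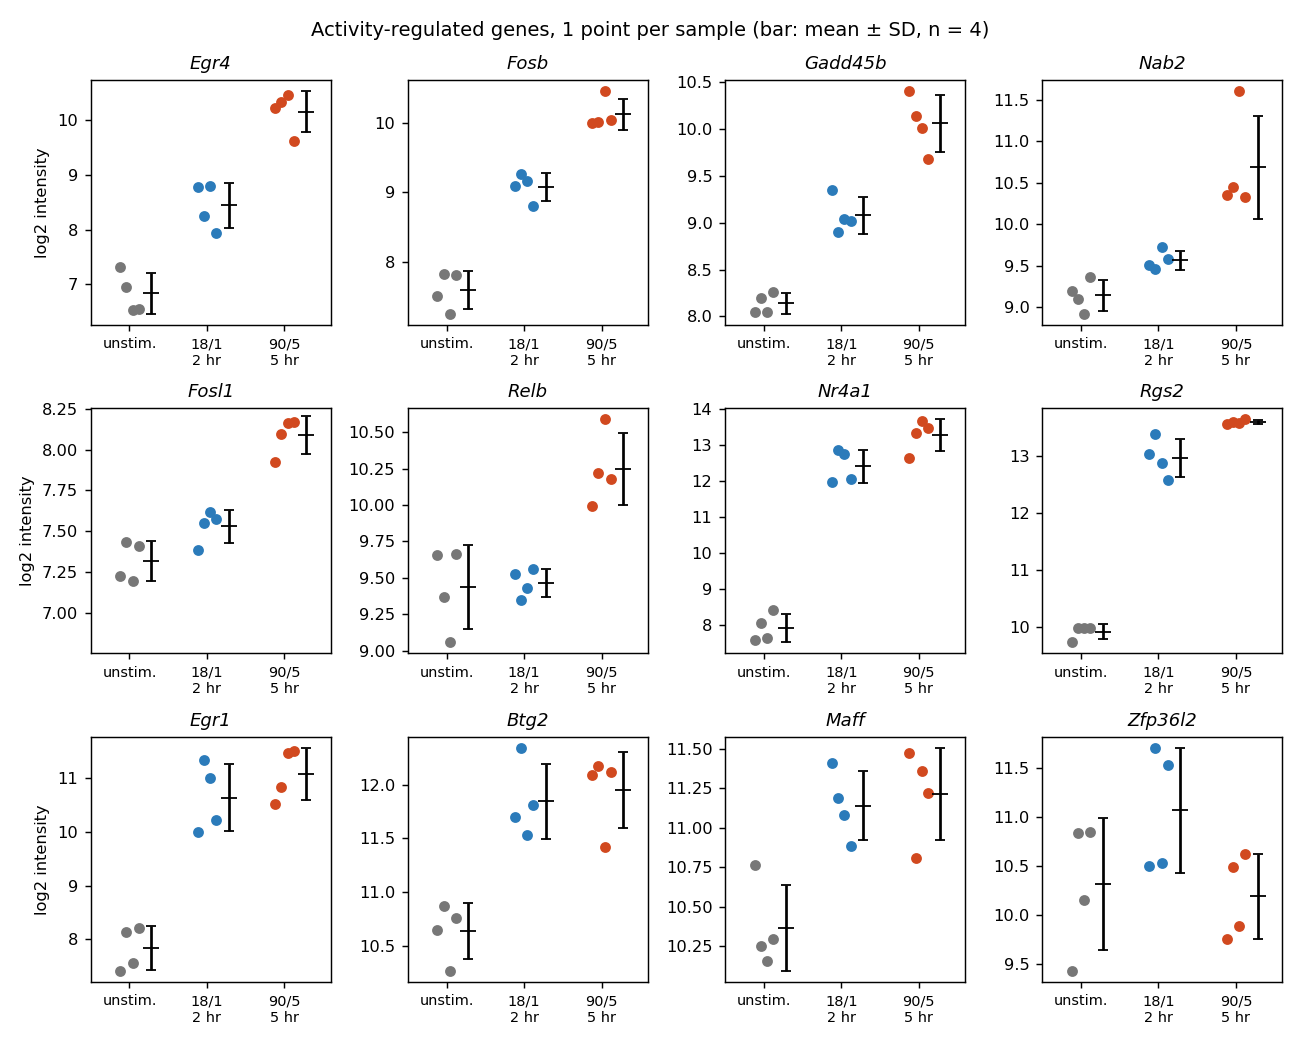
Levels (log2 intensity) of 12 activity genes, with 1 point per sample for unstimulated, 18/1 2 hr and 90/5 5 hr neurons and bars for mean ± SD (n = 4). *Egr4*, *Fosb* and *Gadd45b* form separate steps between 18/1 2 hr and 90/5 5 hr, while *Btg2* and *Maff* overlap.

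Several activity genes differed by as much without passing the adjusted test. *Fos* had levels of 10.03, 10.66, 10.696 and 9.77 at 18/1 2 hr and 11.19, 11.45, 10.85 and 11.33 at 90/5 5 hr. These do not overlap, and the difference of 0.91 had an adjusted p of 0.0564 by limma. *Fos* and *Ier3* were each called in 10 limma alternatives, among them without replicate 1 or 3 of 90/5 5 hr, and so was *Trpm6*. *Npas4*, a factor induced by calcium entry in neurons, had a difference of 1.06 (adjusted p = 0.191), with samples from 11.04 to 12.39 and from 11.76 to 13.67. *Fosl2* differed by 1.02 (adjusted p = 0.123), the channel gene *Trpm6* by 0.96 (0.0634), *Ier3* by 0.82 (0.0522) and the cytokine signalling inhibitor *Socs3* by 0.83 (0.153). *Bdnf* differed by 0.47 (adjusted p = 0.186) and was also shown to lie within 2-fold (adjusted p = 0.00508 for equivalence). The 9 genes that the study listed as raised in all of its conditions are the transcription factors *Nr4a1*, *Npas4* and *Egr4*, the signalling inhibitors *Rgs2*, *Gem* and *Socs3*, and *Trpm6*, *Gadd45b* and *Bdnf*, a list chosen on these samples and so no independent evidence. Of them 2 were called higher, beside 0.831% of all genes, 8 lay above zero and the median difference was 0.86.

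Which genes held a like level in both conditions was asked with 2 one-sided tests on the same limma fit. These pass a gene only when its difference is shown to lie inside a bound. A gene that responded in neither condition passes too, so a pass alone is not an equal response. Against unstimulated neurons, limma called only 5 of 14893 genes at 18/1 2 hr. Within 2-fold, 14376 genes (94.1%) passed, and within 1.4-fold, 3985 (26.1%). Of the 310 genes called as different, 108 also lay within 2-fold, and 701 genes were neither called nor within it. The 1.4-fold count depended strongly on the processing and was 0 under median centring alone, with only the 8 samples in the fit, without replicate 1, 2 or 4 of 18/1 2 hr and without replicate 4 of 90/5 5 hr, against 7641 without replicate 3 of 90/5 5 hr, while the 2-fold count stayed between 13062 and 15073 when any sample was left out.

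Against unstimulated neurons, limma called 5 of 14893 genes at 18/1 2 hr (0.0336%), all higher, and 467 at 90/5 5 hr (3.14%), of which 191 were higher (1.28%) and 276 lower (1.85%). The 5 genes of the first comparison, *Nr4a1*, *Rgs2*, *Egr1*, *Fosb* and *Btg2*, were all called at 90/5 5 hr too. Both comparisons share the unstimulated samples. At an unadjusted p under 0.05 they gave 1154 and 2694 genes.

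*Btg2*, an antiproliferative gene with a part in transcript deadenylation, was the only gene called against unstimulated neurons in both conditions whose samples and size of rise matched closely between them. Its level was 10.65, 10.87, 10.27 and 10.76 in unstimulated neurons, 11.70, 12.34, 11.53 and 11.81 at 18/1 2 hr and 12.09, 12.18, 11.42 and 12.12 at 90/5 5 hr. Both stimulated groups lie above all unstimulated samples and overlap each other. It was 1.21 above unstimulated neurons at 18/1 2 hr (adjusted p = 0.0343, limma) and 1.31 at 90/5 5 hr (adjusted p = 0.00158), and the 2 conditions differed by 0.11 (95% interval -0.26 to 0.48), within 2-fold at an adjusted p of 0.000231. Within 1.4-fold it missed the threshold (adjusted p = 0.0648). The call at 18/1 2 hr was lost when any 1 sample of 18/1 2 hr or of unstimulated neurons was left out, while the difference between the conditions stayed between -0.08 and 0.29 in all 29 limma alternatives.

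*Rgs2*, which curbs signalling by G-protein-coupled receptors, rose in both conditions, and its probes disagree on whether the 2 rises were equal. It was at 9.74 to 9.99 in unstimulated neurons, at 13.03, 13.39, 12.88 and 12.58 at 18/1 2 hr and at 13.56, 13.60, 13.58 and 13.64 at 90/5 5 hr. The 90/5 5 hr samples sit closely together just above the others. The rise was 3.05 at 18/1 2 hr (adjusted p = 2.41e-06, limma) and 3.67 at 90/5 5 hr (adjusted p = 2.6e-07), and the difference of 0.63 was not called (adjusted p = 0.0685) and lay within 2-fold (adjusted p = 0.0197). The second probe of *Rgs2* gave 1.08 and was called (adjusted p = 0.00251), and the gene was called in 9 of 29 limma alternatives, the test of every probe included, among them without replicate 1 of 90/5 5 hr or replicate 2 of 18/1 2 hr.

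*Nr4a1*, an orphan nuclear receptor and the gene with the largest rise in both conditions among those tested in both, was undecided between equal and unequal. Levels of 7.57 to 8.41 in unstimulated neurons became 11.98, 12.85, 12.75 and 12.05 at 18/1 2 hr and 12.64, 13.33, 13.65 and 13.46 at 90/5 5 hr. The rise was 4.49 (adjusted p = 6.58e-06, limma) and 5.35 (adjusted p = 8.26e-07), and the 2 conditions overlapped, with a difference of 0.86 (95% interval 0.28 to 1.45, adjusted p = 0.134) that was not shown to lie within 2-fold (adjusted p = 0.314). It was called without replicate 1 of 90/5 5 hr. *Egr1*, the best known Egr factor, was undecided as well, with rises of 2.81 (adjusted p = 0.00532) and 3.25 (adjusted p = 0.000154) and a difference of 0.44 (95% interval -0.24 to 1.13, adjusted p = 0.517).

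Other activity genes lay within 2-fold with overlapping samples. *Maff*, a small Maf transcription factor, was at 10.88 to 11.41 at 18/1 2 hr and at 10.81 to 11.48 at 90/5 5 hr, a difference of 0.08 (adjusted p = 0.000151 for equivalence within 2-fold). *Gem*, a small GTP-binding protein that inhibits calcium channels, was at 8.87 to 9.59 and at 8.38 to 9.47, a difference of -0.19 (adjusted p = 0.00168), with unstimulated samples at 6.81 to 7.30. *Crem*, which encodes repressors of CREB, differed by -0.20 and *Klf10* by -0.14. The early gene *Ier2* was within 1.4-fold (0.02, adjusted p = 0.0313), at 6.83 to 7.26 and 6.94 to 7.16, close to the unstimulated 6.58 to 7.01.

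The feedback inhibitors had no common direction. Of 25 that passed, *Nab2* was called higher and *Zfp36l2* lower, beside 2.03% of all genes called, and the median was -0.10. Under median centring alone 2 were called higher and 0 lower, and the median was 0.05. *Dusp6*, a phosphatase that inactivates ERK kinases, was at 10.695, 11.80, 10.51 and 10.12 at 18/1 2 hr and at 9.22, 9.04, 9.92 and 10.06 at 90/5 5 hr, without overlap, and its difference of -1.22 had an adjusted p of 0.0962 by limma, and was called without replicate 3 of 90/5 5 hr. The 90/5 5 hr samples lie around the unstimulated range of 9.23 to 9.98. *Dusp1*, another phosphatase, differed by -0.72 (adjusted p = 0.183). *Dusp14* (0.78, adjusted p = 0.063) and *Cish* (0.97, 0.0903) had values of the other sign, while *Dusp2*, *Dusp4* and *Dusp16* were each within 1.4-fold. In the NF-kappaB pathway, 19 of 29 passed, *Relb* alone was called, beside 2.03% of all genes, and the median was 0.04. At an unadjusted p under 0.05, 4 were higher and 1 lower, beside 16.5% of all genes. The median of the pathway was 0.22 under median centring alone. *Nfkbia*, which encodes an inhibitor of NF-kappaB, differed by -0.47 (adjusted p = 0.242). *Bcor* differed by 0.67 (adjusted p = 0.138) and *Nfkbie* by 0.53 (0.124). *Pim1* failed the filter, at 2 times background in 0 unstimulated samples, 3 samples of 18/1 2 hr and all 4 of 90/5 5 hr.

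Apart from *Egr4*, the largest differences among genes with a symbol lay outside the activity genes. *Naprt1* (now Naprt), an enzyme of NAD synthesis from nicotinic acid (probe on chromosome 15 from 75721400 to 75721459), was at 7.55, 7.62, 7.37 and 7.78 at 18/1 2 hr and at 9.58, 9.35, 9.95 and 9.59 at 90/5 5 hr. The groups stand wide apart, by 2.03 or 4.10-fold (adjusted p = 8.1e-05, limma), and the unstimulated samples, at 7.33 to 7.88, lie with 18/1 2 hr. *Cep55*, which acts at the midbody in cell division, was at 9.52 to 9.85 and at 10.93 to 11.58 (difference 1.65, adjusted p = 8.41e-05), and *Pcp2*, a G-protein regulator best known from Purkinje cells, at 8.75 to 9.07 and at 10.17 to 10.87 (1.67, adjusted p = 0.000132).

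*Ins2*, an insulin gene, was at 7.92 to 8.04 and at 9.16 to 9.62 (difference 1.397, adjusted p = 8.41e-05, limma), and *Slc32a1*, the vesicular transporter of GABA and glycine, at 7.08 to 7.23 and at 8.18 to 9.18 (1.53, adjusted p = 0.00299). The other 6 of the 12 largest with a symbol, *E330032C10Rik*, *G630016D24Rik*, *Il28b*, *Tbata*, *1700008J07Rik* and *Lcn12*, were higher by 1.36 to 1.67. All but *Egr4* of the 12 lay between -0.23 and 0.05 of unstimulated neurons at 18/1 2 hr, and *Naprt1*, *Egr4*, *E330032C10Rik*, *Cep55* and *Tbata* kept their call in every limma alternative that gave them a value. After Benjamini-Hochberg adjustment the methods' t-test called 6 genes in all, and *Egr4* was not among them. *Slc32a1* was called in 25 of 28 and not without array 3 or 4 or with means of arrays (adjusted p = 0.0668). The other 6 were each called in 28 of 29 and not in the fit of all 20 samples.

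Among genes with a symbol that were lower at 90/5 5 hr, *Nup210*, a nuclear pore glycoprotein (probe on chromosome 6 from 90963064 to 90963123), differed most. Probes A_55_P2050988 and A_55_P2075731, which have no symbol, differed by more, -2.81 (adjusted p = 0.00107, limma) and -2.51 (adjusted p = 0.00701), and match at 45 of 60 bases, so their values may not be independent. *Nup210* was at 10.79, 11.35, 10.34 and 10.79 at 18/1 2 hr, at 10.04 to 10.86 in unstimulated neurons and at 8.91, 8.94, 8.19 and 8.59 at 90/5 5 hr. The 90/5 5 hr samples lie below all others, by -2.16 or 4.47-fold from 18/1 2 hr (adjusted p = 0.000132, limma). *Serpinb6d*, a serine protease inhibitor gene, was at 10.93 to 11.77 and at 9.05 to 9.98 (difference -1.87, adjusted p = 0.00178). Both were called under all 29 limma alternatives, while the methods' t-test, once adjusted by Benjamini-Hochberg, called 0 genes lower.

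The other 10 of the 12 largest decreases with a symbol, *Dcaf12l2*, *Gm13194*, *Frat2*, *ATP8*, *Spire2*, *Tas2r109*, *Olfr173*, *Gm6987*, *Gm5215* and *Dennd5b*, ran from -1.69 to -1.16. Of 29 limma alternatives, *Frat2* and *Spire2* kept their call in 17, *Dcaf12l2* in 21, *Olfr173* in 22, *ATP8* in 24, *Gm5215* and *Dennd5b* in 26, *Gm13194* and *Tas2r109* in 27 and *Gm6987* in 28. All 10 lost it in the fit of all 20 samples and all but *Gm6987* without array 3. *Frat2* and *Spire2* also lost it without any 1 sample of 18/1 2 hr. Probes disagreed for 3 of them: a second probe gave -0.07 for *Frat2*, -0.42 for *Dcaf12l2* and -0.30 for *Dennd5b*, none of them called. Genes listed in the files without a current symbol made up 56.83% of the genes called lower, against 23.62% of those called higher and 16.14% of all genes tested. The largest of these, *Gm2692*, was at 9.36 to 10.59 at 18/1 2 hr and 13.09 to 13.47 at 90/5 5 hr, a difference of 3.15, or 8.86-fold (adjusted p = 2.99e-05, limma). Its probe matches that of LOC100502776, which differed by 2.74, at 55 of 60 bases, so the values of the pair are not independent.

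**Figure D3:**
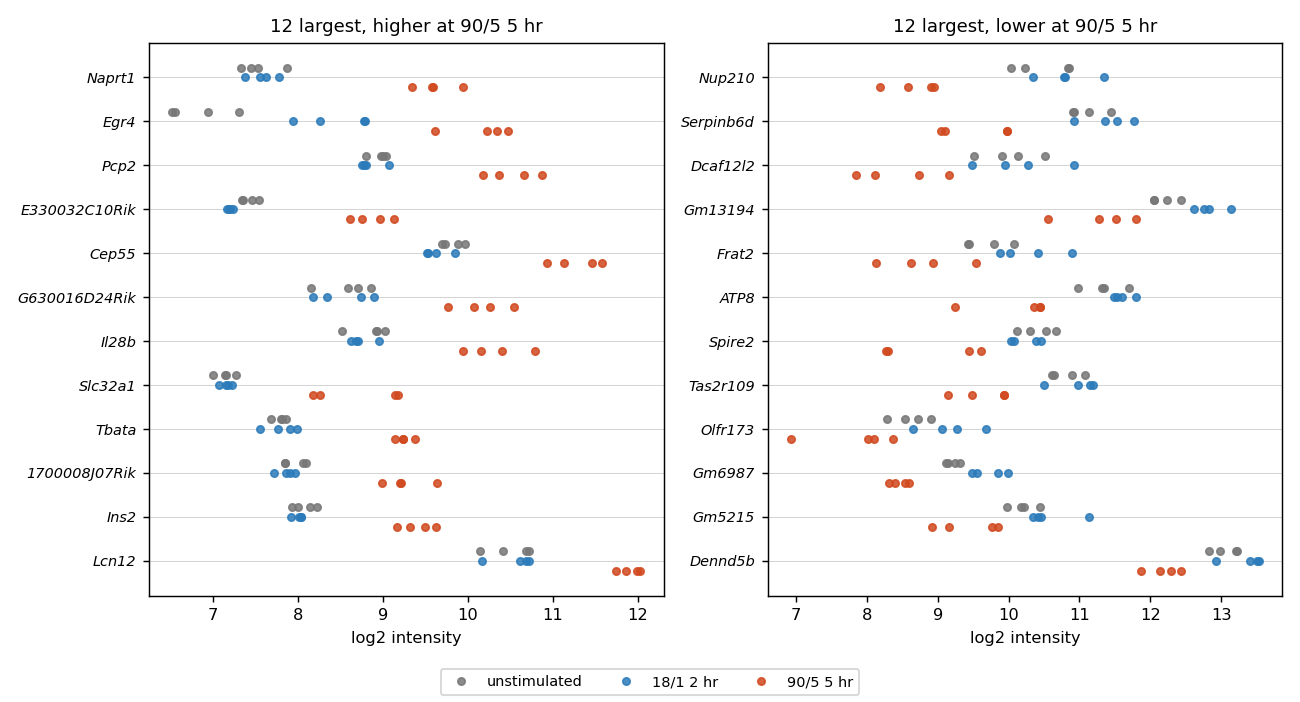
The 12 largest called differences in each direction among genes with a symbol, with the level of each sample (log2 intensity) on the horizontal axis for unstimulated, 18/1 2 hr and 90/5 5 hr neurons. Except for *Egr4*, the 18/1 2 hr and unstimulated samples of the genes on the left lie together, and the 90/5 5 hr samples lie 1.36 to 2.03 above 18/1 2 hr.

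Against unstimulated neurons, the 127 genes called higher had median differences of -0.06 at 18/1 2 hr and 0.74 at 90/5 5 hr, and the 183 called lower had 0.19 and -0.70. The gap between the medians of a set is fixed by how the genes were chosen, and single genes depart from them, such as *Fosb* and *Gadd45b*. Of the genes called, 41 of the higher and 58 of the lower differed by more than 2-fold. Base composition and level of the probes moved with direction. The median GC share was 51.67% for genes called higher, 41.67% for those called lower and 43.33% for all, and the median level was 8.61, 10.86 and 10.21. Across genes the GC share correlated with the difference at r = 0.23, a description only, since probes share samples. With each sample's trend on GC removed, 127 genes were called higher and 177 lower. The part of GC, of the spike-in shift and of the slide in these differences was not tested.

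When all 20 samples were normalized together, 11 of the 12 largest higher genes lay above all 16 other samples, those of the 18/1 pattern at 5 hr and of the 90/5 pattern at 2 hr included. *Egr4* was the exception, with a mean of 7.33 in unstimulated neurons and of 8.80 in the 18/1 2 hr samples, against 10.45 for 18/1 5 hr, 10.25 for 90/5 2 hr and 10.46 for the 90/5 5 hr group. *Nup210* and 4 others of the 12 largest lower genes lay below all 16. Both sets were chosen by their difference from 18/1 2 hr, so their place against those samples is fixed by the choice. At 18/1 5 hr and 90/5 2 hr, both on slide 2, *Cep55* had means of 8.69 and 8.27, against 10.12 in unstimulated neurons. *Dcaf12l2* had 15.19 and 13.87 against 10.32, while *Tbata* stayed at 8.22 and 8.14 against 8.21. The part of the slide in these rankings was not tested. Slide 2 holds the groups left out of the fit, and a fit over all 20 samples, in which its quality marks were not used, called 14 genes, 8 higher and 6 lower.

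**Figure D4:**
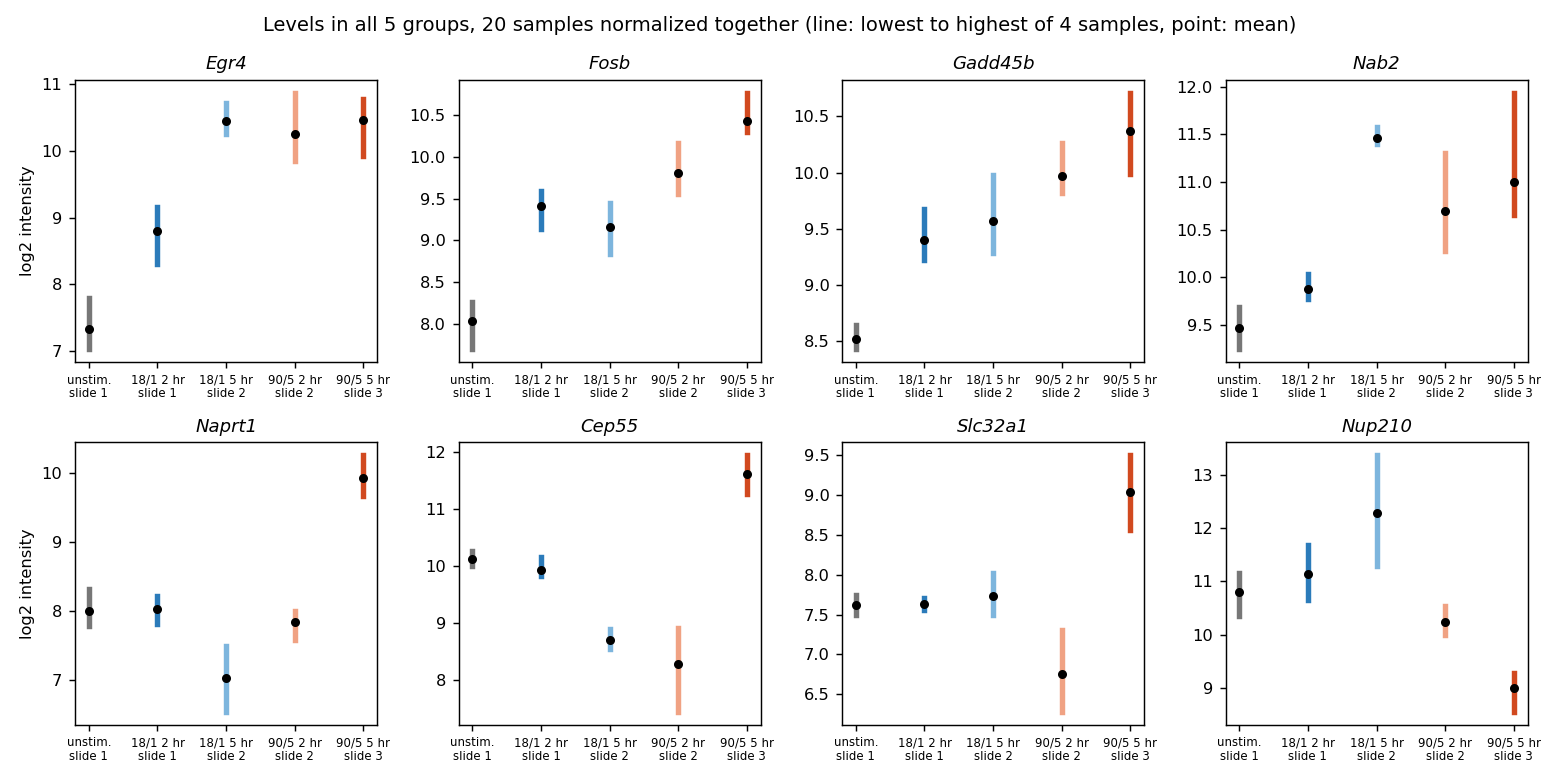
Levels (log2 intensity) of 8 genes in all 5 groups with all 20 samples normalized together, where a line spans the lowest to the highest of 4 samples and a point is the mean. *Egr4* is at 8.80 at 18/1 2 hr and between 10.25 and 10.46 in the other 3 stimulated groups. *Naprt1*, *Cep55* and *Slc32a1* are highest at 90/5 5 hr, the only group on slide 3. The 18/1 5 hr and 90/5 2 hr groups lay on slide 2, where *Cep55* was at 8.69 and 8.27, below its 10.12 in unstimulated neurons.

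Of 67 ion channel genes that passed, 2 were called, both higher, and the median was 0.09. Of all genes, 0.831% were called higher and 2.03% in either direction. *Trpv4*, a cation channel opened by osmotic stretch and warmth, was at 7.01 to 7.21 and at 7.77 to 8.13 (difference 0.84, adjusted p = 0.0035, limma). *Kcna5*, a voltage-gated potassium channel, was at 7.46 to 8.10 and at 8.64 to 8.90 (0.95, adjusted p = 0.00495). Both are near the low end of the levels measured, and both calls were lost without replicate 4 of 90/5 5 hr (adjusted p = 0.0557 and 0.0826). The abundant sensory channel *Scn10a* differed by 0.58 (adjusted p = 0.328). Among 12 neurotrophin and GDNF signalling genes *Artn*, a ligand of the Ret receptor system, was called (0.90, adjusted p = 0.0437), with samples at 7.43 to 7.80 and at 7.99 to 8.89, and its call held in 16 of 29 limma alternatives and was lost without any 1 sample of 18/1 2 hr or replicate 2 or 4 of 90/5 5 hr.

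On the list of Rac signalling genes from the study, also chosen on these samples, 2 of 32 were called, both lower, beside 1.2% of all genes called lower, and 0 with means of arrays. *Pik3r1*, the regulatory subunit of PI3 kinase, was at 8.80 to 9.30 and at 7.97 to 8.43 (difference -0.86, adjusted p = 0.02, limma), and *Cd44*, a hyaluronan receptor, at 8.71 to 8.89 and at 8.07 to 8.16 (-0.67, adjusted p = 0.00587). The *Cd44* samples are tightly grouped and far apart but were not called without replicate 4 of 90/5 5 hr (adjusted p = 0.122) or with all 20 samples in the fit (-0.62). *Pik3r1* was not called without replicate 1 or 2 of 18/1 2 hr or replicate 4 of 90/5 5 hr. The median of the list was 0.05. Of 31 calcium signalling genes from the study limma called 0, with a median of -0.02 and 2 at an unadjusted p under 0.05.

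The lists of housekeeping and metabolic genes held few calls, beside a share of 2.03% over all genes. Of the 83 genes of the respiratory chain and ATP synthase that passed, limma called 0 (4 higher and 2 lower at an unadjusted p under 0.05). Of 80 genes for cytosolic ribosomal proteins, 2 were called lower, *Rps19* (-0.72, adjusted p = 0.035, limma) and *Rps21* (-0.97, adjusted p = 0.00995), whose probes may also measure processed pseudogenes. Under median centring alone 6 cytosolic ribosomal proteins were called higher and 0 lower, and neither of the 2 was called without replicate 4 of either group. Of 23 genes of glycolysis, 0 were called, 4 were higher at an unadjusted p under 0.05 and 19 lay above zero (median 0.15), and 4 were called higher under median centring. Bright probes of these lists were saturated in some of the 12 samples of the fit, on slide 1 only. With such probes left out, 71 respiratory, 62 ribosomal and 17 glycolysis genes stayed in the test, with 0, 2 and 0 calls, so no equality is read from these lists.

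The 11 circadian and PAR bZIP genes that passed held 0 calls by limma, but 7 had an unadjusted p under 0.05, against 16.5% of all genes, and 0 lay within 1.4-fold. The 4 with values above zero were *Cry2* (0.65, adjusted p = 0.133) and *Nr1d1* (0.42, 0.138), repressors of the clock, *Bhlhe40* (0.42, 0.246) and *Nfil3* (0.65, 0.137). The 3 below zero were *Arntl*, an activator of the clock (-0.40, adjusted p = 0.212), *Nr1d2* (-0.54, 0.203) and *Tef* (-0.40, 0.186). Cholesterol synthesis gave 0 calls in 29 (median 0.26, 5 higher at an unadjusted p under 0.05, 2 within 1.4-fold), glucocorticoid and FoxO responsive genes 0 in 12 (4 at that p, 0 within 1.4-fold) and synaptic vesicle and SNARE genes 0 in 26 (0 and 2). The integrated stress response held 0 calls in 20, heat shock proteins 0 in 18, proteasome subunits 0 in 36, axon growth and cytoskeleton 0 in 27 and sensory neuropeptides 0 in 14, with 1 or 2 genes each at an unadjusted p under 0.05. Under median centring alone 4 axon growth and cytoskeleton genes and 1 heat shock protein were called higher. The median of the axon growth list then moved from 0.09 to 0.35. Of 205 three-digit Zfp zinc fingers, genes named Zfp with a number of 3 digits, 1 was called higher, *Zfp691* (0.80), and 5 lower, *Zfp788* (-0.85), *Zfp791* (-0.84), *Zfp941* (-0.63), *Zfp764* (-0.58) and *Zfp408*. Of all genes, 0.831% were called higher and 1.2% lower. At an unadjusted p under 0.05, 10 of these zinc fingers were higher and 28 lower, beside 1221 and 1299 of all 15279 genes. The probe of *Zfp408* was saturated in 2 samples of 18/1 2 hr, so its size is not given, and with saturated probes left out 4 were called lower. Under median centring 2 were called higher and 0 lower, and with only the 8 samples in the fit 0 were called. Of 66 histone genes 42 passed, and *Hist1h2aa* was the only one called, with a difference of -0.72 (adjusted p = 0.0202, limma). Its call held in 20 of 29 limma alternatives and was lost under median centring alone and with means of arrays.

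**Figure D5:**
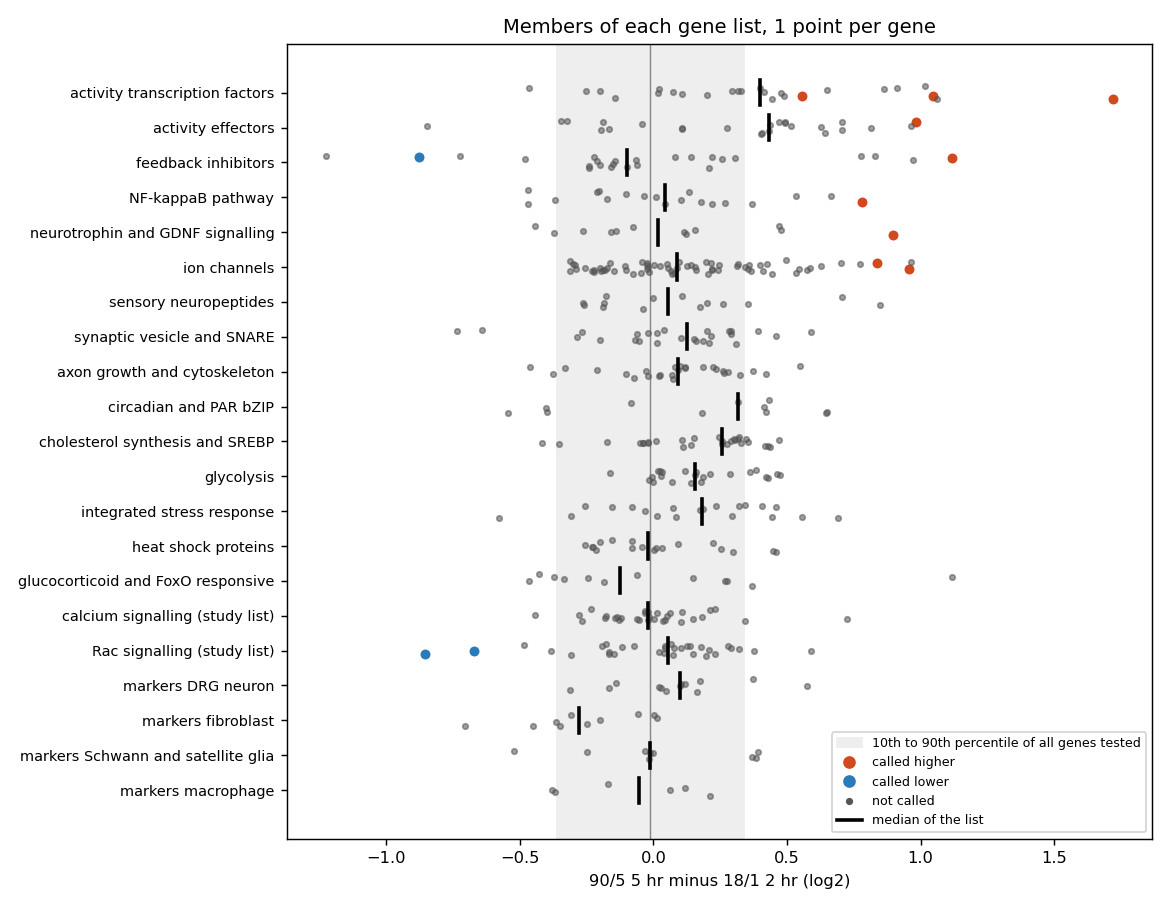
Each point is a gene of the list named on the left, placed by its difference, 90/5 5 hr minus 18/1 2 hr (log2), with a line at the median of the list and a grey band from the 10th to the 90th percentile of all genes tested. The medians of activity transcription factors (0.40) and activity effectors (0.43) stand beside a median of -0.01 over all genes tested, and called genes are coloured.

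Markers of other cell types were checked in the same samples. The summed level of the DRG markers was 18.61 to 19.03 at 18/1 2 hr and 18.58 to 19.54 at 90/5 5 hr. Probes of *Prph*, *Nefl*, *Nefm* and *Calca* were saturated in 2 samples of 18/1 2 hr, so no stability is read from that sum, and limma called 0 of the 9 left without them. Of 9 markers of Schwann and satellite glia, 10 of fibroblasts, 6 of macrophages and 3 of dividing cells that passed, limma called 0, with 1, 1, 2 and 0 at an unadjusted p under 0.05. Over all genes 2.03% were called and 16.5% had such a p. The fibroblast median was -0.28, and their summed level was 16.70 to 17.11 at 18/1 2 hr and 16.53 to 17.04 at 90/5 5 hr. Of 3 endothelial markers 1 was called, *Kdr*, a receptor for vascular endothelial growth factor, at 10.31 to 10.89 and 11.32 to 12.02 (difference 1.13, adjusted p = 0.00458, limma), while *Pecam1* and *Esam* differed by 0.05 and 0.06 and *Cdh5*, *Tek* and *Cldn5* failed the filter. The *Kdr* call was lost without array 3 (adjusted p = 0.066, limma), without array 4 (0.0632) and in the fit of all 20 samples (0.414). *Slc32a1*, described above, was the only spinal marker that passed. Of the 7 that failed, *Pax2* was 2 times above background in all 4 samples of 90/5 5 hr and in 0 of 18/1 2 hr, beside the brighter spots of slide 3. With no spot filter 3 of the 8 markers spinal neuron were called higher, the other 5 did not lie above zero, and the median was -0.04. The summed level of the spinal list was 9.44 to 9.47 at 18/1 2 hr and 9.80 to 10.22 at 90/5 5 hr, without overlap. That sum holds *Slc32a1*, with means of 7.16 and 8.69, and the 7 markers that failed the filter. It is therefore no result for the list apart from *Slc32a1*. The part of spinal neurons in the other differences was not tested. *Cep55* rose without *Ccnb1* (-0.13), *Ccna2* (0.06) or *Birc5* (-0.02), while *Mki67* and *Top2a* failed the filter. Gene names at least 2 times above background in all samples of 90/5 5 hr and in none of 18/1 2 hr numbered 366, against 3 the other way, beside the brighter spots of slide 3.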

How the data were processed

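Cultured neurons were measured on two-colour Agilent mouse arrays of 44397 spots with 60-base probes. Per the labels and the deposited file headers, the authors scanned the arrays and extracted spot intensities with Feature Extraction (version 10.7.1.1 for slide 1 and 10.7.3.1 for slides 2 and 3), and the values used here are the deposited mean signal and median background intensities of each channel, before normalization. Each channel holds 1 sample. The other 87 columns of each array file (93 on slide 2, whose quality marks could not be tied to 1 sample) were not used. The deposited probe coordinates are in mm9.

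With limma 3.58.1 in R 4.3.3, intensities of the 12 samples of slides 1 and 3 were background-corrected (normexp, offset 50), normalized by loess within arrays, with control spots at weight 0, and by Aquantile between arrays, and turned to log2. Spots had to be at least 2 times their background and not flagged as non-uniform in all 8 samples compared (in all 12 for tests against unstimulated neurons). Spots of a probe were averaged, and the brightest probe on average stood for each gene. The linear model held group and colour, with arrays entered as random blocks (consensus correlation 0.09), with p-values adjusted by the Benjamini-Hochberg method over all genes at a threshold of 0.05. Equality was tested with 2 one-sided tests at bounds of 1.4-fold and 2-fold, adjusted the same way. Steps were tested on simulated data. No pair of samples held identical values.

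The genes named are the 12 largest called differences in each direction among genes with a symbol, the largest without one, genes called against unstimulated neurons in both conditions or at 18/1 2 hr, and called members of the gene lists. Members and lists were chosen with earlier results of these data known, and members named without a call, such as *Fos*, *Ier3*, *Dusp6* and *Scn10a*, were chosen after their values were seen. Genes named Rac or calcium signalling follow lists of the study. Of the genes tested, 83.86% had a symbol in the RefSeq table. Promoters came from the RefSeq table for GRCm38.p6.

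The replicate numbers of unstimulated and 18/1 2 hr samples, which also mark the colour, paired the samples (correlations of deviations 0.407, 0.712, 0.488 and 0.639), and with the number as a block 7 genes were called in place of 5. Alternatives varied the background correction, normalization, filter, probes, terms and samples of the fit, the test and the replicates. The number of arrays limits the precision, with a median standard error of 0.16 on the log2 scale. Plots were drawn with matplotlib 3.10.9 in Python 3.11.15.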

Additional observations from a re-analysis of the deposited data

Results flagged for a closer look

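Single samples stood far from the other 3 of their group for 9 of 174 pairs of gene and group, and chance alone sets off this criterion for about 1 in 20. In replicate 3 of 90/5 5 hr, *Fosb* was at 10.47 (others 9.996 to 10.04), *Nab2* at 11.61 (others 10.33 to 10.45), *Btg2* at 11.42 (others 12.09 to 12.18) and *ATP8* at 9.25 (others 10.35 to 10.44). At 18/1 2 hr, *Pcp2* was at 9.074 in replicate 2 (others 8.748 to 8.802), *Gm5215* at 11.14 in replicate 1 (others 10.35 to 10.45) and *LOC100502776* at 9.98 in replicate 3 (others 10.83 to 11). In unstimulated neurons, *Rgs2* was at 9.735 in replicate 1 (others 9.98 to 9.987) and *Kcna5* at 7.79 in replicate 4 (others 7.615 to 7.621).

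The change of *Fosb* from unstimulated neurons differed between the conditions, 1.49 at 18/1 2 hr and 2.53 at 90/5 5 hr, by 1.0448, which the comparison of the conditions tested (adjusted p = 0.00995, limma).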

How the results depend on the processing

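Among the genes named or listed and the counts recomputed, no called value changed sign under the alternatives run, while median centring alone turned the split of all calls from 127 higher and 183 lower to 278 and 68. For 90/5 5 hr minus 18/1 2 hr, the count of 310 stayed within 1.5 times in 14 of 31 alternatives. It became 14 with all 20 samples, 105 with only the 8 samples, 519 with no spot filter, 75 with means of arrays, 1892 with array weights, 602 by the methods' t-test with no adjustment and 6 after Benjamini-Hochberg adjustment. Replicate numbers did not pair these groups (correlations 0.634, 0.0916, 0.257 and -0.0424), and the replicate block gave 500. Leaving out replicates gave 62 to 1954 and arrays 76 to 2563. Removing a trend on probe GC or on level, chosen after seeing the data, gave 304 and 314. For the equivalence of 90/5 5 hr and 18/1 2 hr, the 3985 genes within 1.4-fold became 1502 with no background subtraction, 0 under median centring alone, with all 20 samples, with only the 8 samples or with means of arrays, 19191 with no spot filter, 9049 with array weights and 6766 with the replicate block. Leaving out replicates gave 0 to 7641 and arrays 0 to 5667. Within 2-fold, 14376 became 28377 with no spot filter, and 13062 to 15073 without replicates and 13278 to 15032 without arrays. For 18/1 2 hr minus unstimulated, 5 became 2 with all 20 samples, 11 with only the 8 samples or with no spot filter, 15 with a filter met in 1 group, 1644 with array weights, 225 by the methods' t-test and 0 after adjustment (1154 had an unadjusted p under 0.05 by limma), and 3 to 6 without replicates and 2 to 3 without arrays. For 90/5 5 hr minus unstimulated, 467 became 18 with all 20 samples, 178 with only the 8 samples, 724 with no spot filter, 116 with means of arrays, 4097 with array weights, 854 by the t-test, 24 after adjustment and 814 with the replicate block, and 72 to 1442 without replicates and 55 to 1859 without arrays. Where fewer samples or arrays entered, the fit had fewer degrees of freedom. The cause of the other moves was not tested. The study's Bonferroni adjustment over spots was not applied, and the form of its fold limit was assumed. Each group had 2 arrays on 1 slide, so slide and condition cannot be told apart, and spots close to background limit the low genes.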
